A study of Mus musculus with 54 samples.

Results

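Secretory Rab GTPases are small G proteins of vesicles and granules. In their GTP-bound form they recruit effectors that carry, tether and prime these organelles for release at the plasma membrane, and they return to the cytosol with GDP after exchange and hydrolysis. Neurons use them for synaptic vesicles and neuropeptide granules, and gland, kidney and blood cells use them for granules and for the traffic of membrane proteins. The genes described here are 8 of the 54232 genes in the count files: Rab26 (ENSMUSG00000079657), Rab3a (ENSMUSG00000031840), Rab3b (ENSMUSG00000003411), Rab3c (ENSMUSG00000021700), Rab3d (ENSMUSG00000019066), Rab27a (ENSMUSG00000032202), Rab27b (ENSMUSG00000024511) and Rab37 (ENSMUSG00000020732). They were taken by symbol, and the set was selected on measured values, because Rab26 was already known to have higher counts in the 20-month brain after Cmpd60. That contrast is therefore given for all 8 genes as a description with no test.

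Rab3a is the main Rab of synaptic vesicles, and Rab3b and Rab3c are related proteins of brain vesicles and granules. Rab3d is best known from the granules of exocrine glands. Rab27a serves melanosomes and lytic granules, and Rab27b serves granules of platelets and exocrine cells. Rab37 is found on granules of mast cells and of insulin-producing cells. Rab26 takes part in granule maturation and directs synaptic vesicles to autophagy, where it binds Atg16l1 and is activated by the exchange factor Plekhg5.

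Cmpd60 is an inhibitor of the histone deacetylases HDAC1 and HDAC2. Male BL6 mice aged about 20 months received it at 22.5 mg/kg by daily intraperitoneal injection for 14 days, or the vehicle of DMSO, PEG400 and saline. Bulk RNA was sequenced from brain (6 Cmpd60, 6 vehicle), heart (5 Cmpd60, 6 vehicle) and kidney (6 Cmpd60, 5 vehicle) of these mice. A second cohort of male mice on the BL6 background, aged 6 to 7 months, had the same injections. It held APPSWE-1349 mice, which carry a transgene for a human amyloid precursor protein with the Swedish mutation (brain of 4 Cmpd60 and 5 vehicle mice), and littermates without the transgene (brain of 5 Cmpd60 and 5 vehicle mice). The promoter of the transgene is not given in the sources used here. Tissues of the same mouse cannot be matched from the labels, so all libraries were treated as separate mice, and p-values measure the spread between these libraries. The kidney groups follow titles and source names, which the treatment field of the same labels contradicts, so the kidneys called vehicle here are Cmpd60 kidneys by that field. Replicate s139 is left out of every group because its labels and the study's own table place it in different treatments.

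Counts on genes ran from 26402957 to 57430113 per library in the 20-month brain, from 23584609 to 43792168 in the heart and from 25164965 to 39171083 in the kidney. The 20-month brain libraries of Cmpd60-treated mice were the deeper ones, at 29646412 to 57430113 counts against 26402957 to 32344641 with vehicle. In the younger brains, the ranges were 25052335 to 37844133 in littermates and 25418439 to 55871402 in APPSWE mice. Levels are given as CPM, read counts scaled to library size with TMM. A floor of 3 counts corresponded to 0.0685 to 0.127 CPM in the heart and kidney libraries when divided by library size alone, without TMM, and covers counting error only. The labelled tissues matched their markers. The 5 neuron markers summed to 4970 ± 240.4 CPM (SD, n = 6) in vehicle brain, 10.9 in heart and 3.07 in kidney, the 4 markers of ventricular and general cardiomyocytes to 48580 CPM in heart and 5.73 in brain, and the 3 markers of kidney proximal tubule to 6861 CPM in kidney and 1.0 in brain.

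In the younger cohort, 5 libraries stood apart by the number of genes detected. Replicate s155 (littermate, vehicle) had 15044 genes with a read, replicate s152 (littermate, Cmpd60) 15084, replicate s140 (APPSWE, vehicle) 15555, replicate s141 (APPSWE, Cmpd60) 16402 and replicate s146 (APPSWE, vehicle) 16577, while the next fewest in any group was 18518. Replicate s139, which is in no group, had 18122. The biological coefficient of variation was 0.729 over the 19 grouped brains of this cohort, against 0.114 in the 20-month brain, 0.210 in heart and 0.255 in kidney. The main log2 fold changes named below for the younger cohort are also given without these 5 libraries, an alternative chosen after seeing the data.

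To compare levels between genes, CPM were divided by the exon length of each gene. For this the 34 libraries of 20-month tissue were scaled together with TMM, while the CPM given elsewhere were scaled within each tissue and cohort and differ from these by a factor for each library. In vehicle-treated 20-month brain, Rab3a was the highest of the 8 genes at 138.8 ± 9.78 CPM per kb (SD, n = 6), and Rab3c came next at 59.8 ± 2.24. Rab26 stood at 10.98 ± 0.61 CPM per kb and Rab3b at 9.86 ± 1.39, and these neighbours overlapped between libraries. Rab37 (3.47 ± 0.46 CPM per kb), Rab27b (3.20 ± 0.27) and Rab27a (3.10 ± 0.12) did not differ from each other beyond their spread, and Rab3d was lowest at 1.97 ± 0.20. The synaptic vesicle and brain isoforms of the Rab3 family thus held most of the summed level of the 8 genes in brain. Rab3a made up 60.0 ± 1.42% (SD, n = 6) of the sum of CPM per kb, Rab3c 25.9 ± 1.10%, Rab26 4.76 ± 0.31% and Rab3b 4.26 ± 0.47%. Lower RNA of a gene in a bulk tissue can mean fewer cells that express it or less RNA per cell, and these cannot be told apart here.

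The order was different in heart. Rab3a led at 12.5 ± 0.85 CPM per kb (SD, n = 6), followed by Rab3d at 8.90 ± 0.43 and by Rab27a at 1.99 ± 0.32. Rab3b was at 1.05 ± 0.34 CPM per kb, below every library of Rab27a. Rab37 (0.266 ± 0.13), Rab27b (0.249 ± 0.10), Rab3c (0.103 ± 0.145) and Rab26 (0.0541 ± 0.0877) overlapped at the bottom of the order. The synaptic vesicle gene Rab3a thus held 49.7 ± 2.39% of the summed CPM per kb in heart, and the exocrine granule gene Rab3d 35.6 ± 2.53%.

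In kidney, the melanosome and lytic granule gene Rab27a had the highest level of the 8, at 8.44 ± 0.95 CPM per kb (SD, n = 5), above all libraries of Rab3d at 5.45 ± 0.62. Rab3a followed at 3.15 ± 0.10 CPM per kb, Rab3b at 1.07 ± 0.084, Rab27b at 0.658 ± 0.087 and Rab37 at 0.154 ± 0.0455, each below all libraries of the gene before it. Rab26 (0.0456 ± 0.0369) and Rab3c (0.0287 ± 0.0149) came last and did not differ beyond their spread. Rab27a made up 44.3 ± 2.81% of the summed CPM per kb in kidney, Rab3d 28.7 ± 2.63% and Rab3a 16.7 ± 1.12%. Rab26 held 0.234% of that sum in kidney and 0.215% in heart, so its RNA was close to the detection floor in both tissues. It had 0 to 7 reads per library in the 11 heart libraries and 0 to 5 in the 11 kidney libraries.

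**Figure D1:**
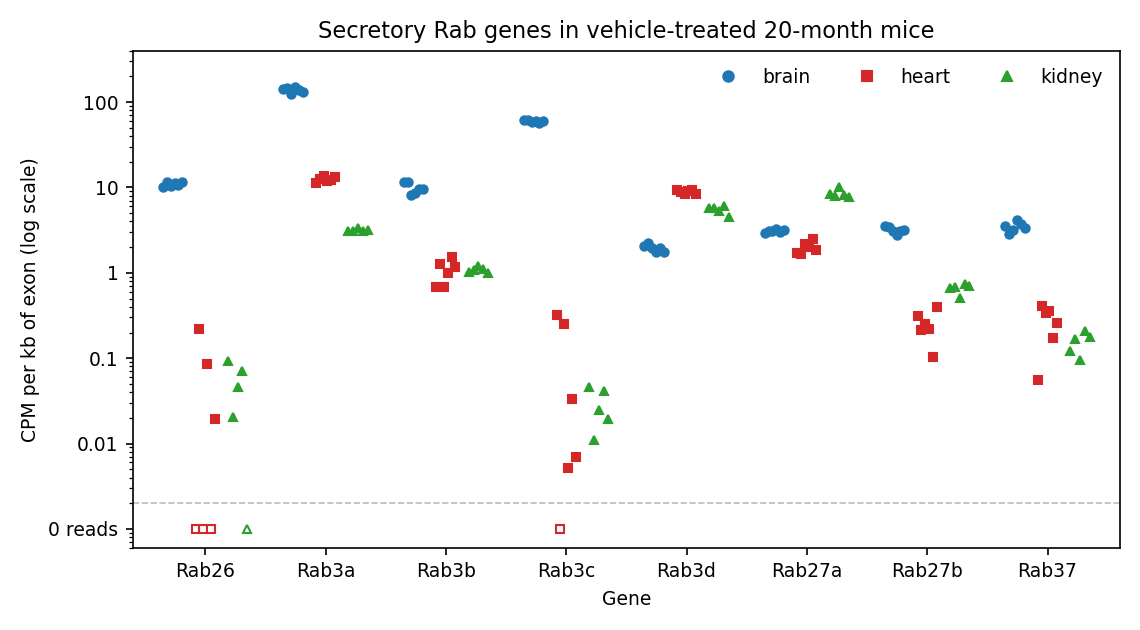
Level of each secretory Rab gene in vehicle-treated 20-month mice, as CPM per kb of exon on a log axis, with 1 point per library for brain (6), heart (6) and kidney (5). Open symbols below the dashed line are libraries with 0 reads of the gene. Rab26 lies between 10.2 and 11.7 CPM per kb in brain and at or below 0.220 in heart and kidney, while Rab27a is highest in kidney, from 7.64 to 10.1.

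The tissues of vehicle-treated mice were then compared gene by gene with edgeR's quasi-likelihood test over 24855 genes, and a gene is said to be called where its Benjamini-Hochberg adjusted p is below 0.05. Brain exceeded kidney for 6 of the 8 genes, and kidney exceeded brain for Rab3d and Rab27a. Of all genes tested, 41.7% were called higher and 34.9% lower in brain than in kidney, so calls were common, and the median log2 difference was 3.87 over the 8 genes against 0.20 over all genes. Rab3c showed the widest gap, with a log2 difference of 11.05 (SE 0.52, adjusted p = 1.58e-14), although kidney had only 40 reads of it in its 5 vehicle libraries. Rab26 followed with 7.92 (SE 0.41, adjusted p = 8.55e-14) against 11 reads in those kidney libraries, so its size rests on few reads. Both genes were far lower in every kidney library than in any brain library.

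Rab3a, with many reads in both tissues, was higher in brain than kidney by a log2 difference of 5.49 (SE 0.077, adjusted p = 7.86e-23). The log2 difference was 4.51 (SE 0.29) for Rab37, 3.23 (SE 0.17) for Rab3b and 2.31 (SE 0.18) for Rab27b. In the opposite direction, Rab3d gave -1.44 (SE 0.085, adjusted p = 1.14e-12) and Rab27a -1.42 (SE 0.10, adjusted p = 3.17e-11).

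Against heart, brain was higher for 7 of the 8 genes and lower for Rab3d, where 44.6% of all genes were called higher and 31.4% lower in brain. The median log2 difference was 3.56 over the 8 genes and 0.34 over all genes. Rab3c (9.30, SE 0.43) and Rab26 (7.69, SE 0.39, adjusted p = 5.75e-14) again had the largest log2 differences, Rab26 against 11 reads in the 6 vehicle hearts. Rab37 (3.70, SE 0.26), Rab27b (3.65, SE 0.19), Rab3a (3.47, SE 0.063) and Rab3b (3.20, SE 0.16) formed a middle group whose errors overlap in part. Rab27a differed least, by 0.63 (SE 0.10, adjusted p = 9.74e-06), and Rab3d was lower in brain by a log2 difference of -2.19 (SE 0.084, adjusted p = 4.44e-16).

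Between kidney and heart, 32.8% of all genes were called higher in kidney and 28.8% lower. Rab27a (log2 difference 2.05, SE 0.11, adjusted p = 1.52e-13) and Rab27b (1.35, SE 0.20, adjusted p = 3.13e-06) were higher in kidney, and so the Rab27 pair stood together. Rab3a (-2.02, SE 0.069, adjusted p = 1.09e-16) and Rab3d (-0.75, SE 0.084, adjusted p = 7.78e-08) were lower in kidney. Rab37 was lower by -0.81 (SE 0.31, adjusted p = 0.0281), and this call was lost without replicates 63 (adjusted p = 0.0778), 64 (0.0590), 65 (0.0659), 45 (0.0649) or 47 (0.0687), and with limma-voom, where the value was -0.63 and the adjusted p 0.239. By the treatment field, the vehicle kidneys would be those titled Cmpd60. Their mean Rab37 was 0.241 CPM per kb, against 0.154 in kidneys titled vehicle and 0.266 in vehicle hearts, and that comparison was not fitted. Rab3b did not pass (-0.023, SE 0.17, adjusted p = 0.960), and neither did Rab3c (-1.74, SE 0.80, adjusted p = 0.0638). For Rab3c the direction depended on the tool, with -0.066 by limma-voom and 0.28 with sample quality weights, and the call on the libraries: it passed without replicate 63 (adjusted p = 0.0268), 65 (0.0273), 66 (0.0432) or 67 (0.0182). Rab26 is given as reads only, 11 in the kidney and 11 in the heart libraries of vehicle-treated mice, since both tissues were near the floor.

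The partners of these Rabs were counted in lists of effectors, regulators, fusion machinery, dense-core granule genes and other Rabs. Of the 18 Rab effectors, 11 were called higher and 5 lower in brain than in kidney. The 4 largest log2 differences belonged to Rims1 (11.36, SE 0.35), an active zone protein that binds Rab3, Syn1 (10.75, SE 0.24), a synaptic vesicle phosphoprotein, Unc13a (8.12, SE 0.13), a priming factor, and Rph3a (7.08, SE 0.14), a Rab3 and Rab27 effector. Against heart, 11 effectors were called higher in brain and 1 lower, led by Rph3a at 13.84 (SE 0.22). Of all genes, 41.7% were called higher and 34.9% lower in brain than in kidney, and 44.6% and 31.4% in brain than in heart.

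Of 15 Rab regulators, 8 were called higher and 6 lower in brain than in kidney, beside 41.7% and 34.9% of all genes. Their median log2 difference was 0.46, against 0.20 over all genes. Madd, an exchange factor for Rab3 and Rab27, gave a log2 difference of 2.79 (SE 0.068). Rab3ip, an exchange factor for Rab8, lay on the kidney side with -3.13 (SE 0.074), as did Rab3il1 with -1.89 (SE 0.11). All 14 genes of the fusion machinery were called higher in brain than in heart, and 13 of 14 higher and 1 lower than in kidney. All 10 dense-core granule genes were called higher in brain than in either tissue. Among 34 other Rabs, 18 were called higher and 13 lower than in kidney, with Rab15 at 4.54 (SE 0.13), Rab38 at -4.21 (SE 0.33), Rab6b at 4.01 (SE 0.12) and Rab40b at 3.68 (SE 0.18). Their median was 0.37, and nothing particular to Rab genes is read from counts this close to those of all genes.

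Among the 5 genes whose log2 CPM followed Rab26 most closely over the 34 libraries of 20-month tissue, of 15871 genes, were Irs4 (Pearson r = 0.986), Fam43b (0.984) and Nptn (0.984). The 12 brain libraries lie apart from the 22 heart and kidney libraries, so these values mainly describe genes of brain against the other tissues. Over the 20 brains of the younger cohort, replicate s139 included, and among 15082 genes, they were Fam53c (r = 0.814), Spsb4 (0.799), Ly6g6e (0.792), Sema3f (0.788) and Mak (0.787). No gene was in both sets of 5, and depth and gene detection differ between those libraries as given above.

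The effect of Cmpd60 on Rab26 in the 20-month brain is the contrast by which the set was selected. With vehicle, Rab26 ranged from 19.4 to 22.2 CPM with a median of 20.9 (515 to 695 reads). With Cmpd60, it ranged from 25.7 to 31.9 CPM with a median of 30.8 (916 to 1839 reads). All 6 Cmpd60 libraries lay above all 6 vehicle libraries. The log2 fold change was 0.52 (SE 0.063, n = 6 and 6), and from 0.50 to 0.56 when each library was left out in turn. It was 0.51 with every brain library thinned to the smallest, an alternative chosen after seeing the data. Rab26 was the only one of the 8 genes without overlap of the groups, against 0.925% of the 24438 genes, and nothing is read from this because it chose the set.

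Other values that moved with these groups were measured in marker lists. The pituitary list (4 of 4 markers) summed to 2.08, 2.33, 3.21, 3.62, 16.4 and 611 CPM in the Cmpd60 brains, the highest being replicate 35 with Gh as its most abundant gene, and to 1.29 to 6.13 CPM in the vehicle brains. The defining pituitary markers Gh and Prl were both at 0 in replicates 33, 36, 30 and 32. The podocyte list (3 of 3, Podxl most abundant and none at 0) gave 48.4 to 68.3 CPM with Cmpd60 and 39.4 to 45.03 with vehicle, with no overlap. The endothelium list (4 of 4, Kdr or Pecam1 most abundant, none at 0) gave 81.38 to 123.4 CPM with Cmpd60 and 76.99 to 84.31 with vehicle, with overlap. The list of cortex and hippocampus neurons (4 of 4, Slc17a7 most abundant, none at 0) gave 879.8 to 1296 against 786 to 952 CPM, and the neuron list (5 of 5, Snap25 most abundant, none at 0) 4999 to 5865 against 4666 to 5376 CPM. The lists of 2 other regions had lower means with Cmpd60, with 269.5 to 526.7 against 408.5 to 628.9 CPM for cerebellum (4 of 4, Calb1 most abundant in all but 1 library) and 25.5 to 57.1 against 31.5 to 87.2 CPM for olfactory bulb (3 of 3, Cdhr1 most abundant). Those of striatum (464 against 432 CPM in the mean) and hypothalamus (59.3 against 44.8) had higher means, with overlap. The part of these and of the greater depth with Cmpd60 in the Rab26 values was not tested.

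The other 7 genes had smaller values in the 20-month brain, with overlapping groups. Rab37 was at 12.9 to 21.4 CPM (median 18.4) with Cmpd60 and 17.9 to 26.7 CPM (median 21.7) with vehicle, a log2 fold change of -0.31 (SE 0.11). The remaining 6 genes had log2 fold changes from -0.052 for Rab27b to 0.036 for Rab3a. Over other settings and left-out libraries, 14 of 133 values of the 7 genes changed sign. In all, 4 genes were above 0 and 4 below, with a median of -0.01 against 0.007 over all genes. Of the partners of Rab26, the exchange factor Plekhg5 had a log2 fold change of 0.27 (SE 0.077) and the autophagy protein Atg16l1 0.079 (SE 0.051), both with overlapping groups.

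The rise of Rab26 that is part of the choice of genes is that in the 20-month brain, and the littermates and APPSWE mice are other samples, in which the effect of Cmpd60 on Rab26 was tested. The set was chosen with results of the whole series known, so these p-values are not fully independent of the choice. In littermates given vehicle, Rab26 was at 15.2, 15.8, 17.5, 20.0 and 25.1 CPM, and in littermates given Cmpd60 at 21.8, 22.9, 23.7, 29.7 and 32.5 CPM. The highest vehicle library reached into the range of the Cmpd60 libraries, so the groups overlapped. The log2 fold change was 0.48 (SE 0.20), which passed an unadjusted p below 0.05 but had an adjusted p = 0.999 by edgeR's quasi-likelihood test over 23194 genes. A two-sided exact permutation test of the log2 CPM in these 10 libraries gave p = 0.0397, where 252 arrangements allow 0.00794 as the smallest. The unadjusted edgeR p no longer passed without replicate s150 (log2 fold change 0.41), s152 (0.39), s154 (0.43) or s157 (0.43).

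In APPSWE mice given vehicle, Rab26 was at 12.2, 18.0, 19.4, 19.9 and 20.9 CPM, and in APPSWE mice given Cmpd60 at 23.8, 26.5, 26.6 and 31.7 CPM. Here all Cmpd60 libraries were above all vehicle libraries, and the lowest and the highest value belonged to replicates s140 and s141, which had few genes detected. The log2 fold change was 0.59 (SE 0.21), which passed an unadjusted p below 0.05 and had an adjusted p = 0.444 by edgeR. The two-sided exact permutation test gave p = 0.00794, the smallest that 126 arrangements allow. Without the 5 libraries that stood apart, the log2 fold change was 0.41 in littermates (SE 0.15, adjusted p = 0.999) and 0.35 in APPSWE mice (SE 0.17, adjusted p = 0.477), and only the first passed an unadjusted p below 0.05.

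**Figure D2:**
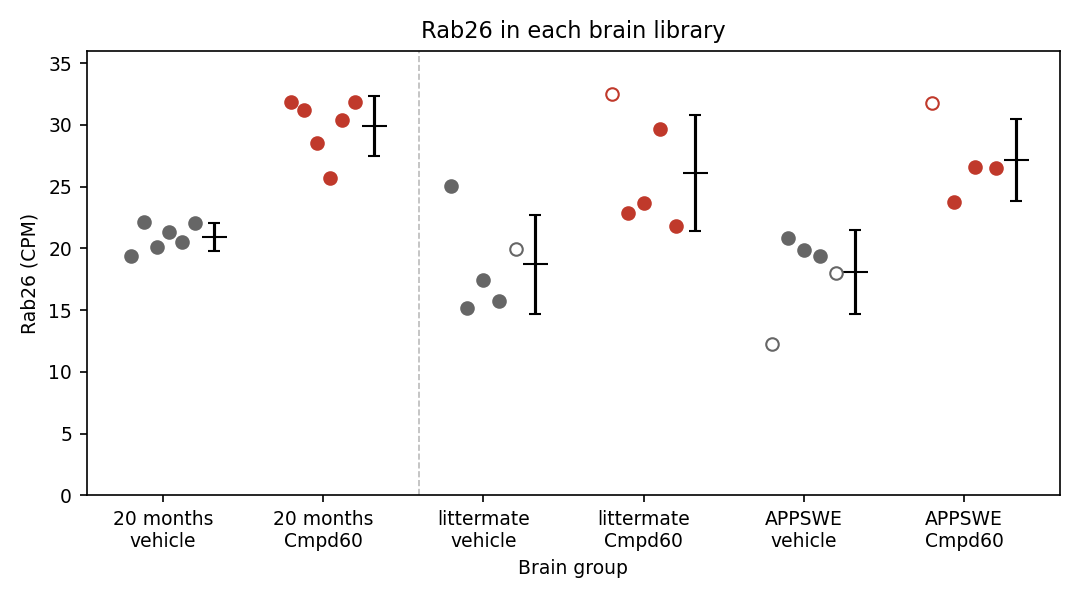
Rab26 in each brain library, as CPM on a linear axis that starts at 0, for the vehicle (grey) and Cmpd60 (red) groups of 20-month mice, littermates and APPSWE mice, with the bar at the side of each group showing the mean ± SD. Open points are the 5 libraries with the fewest genes detected, and the dashed line separates the cohorts, whose CPM were scaled separately. The 20-month groups and the APPSWE groups do not overlap, while the highest littermate vehicle library, at 25.1 CPM, lies within the range of the littermate Cmpd60 group.

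Averaged over both genotypes, the log2 fold change of Rab26 with Cmpd60 was 0.53 (SE 0.14), with an adjusted p = 0.333 by edgeR. Permuting treatment within each genotype, over all 31752 arrangements, gave an exact two-sided p of 0.000346 for a mean difference of 0.54 in log2 CPM, and 3.15e-05 was the smallest it could give. Rab26 thus passed a single-gene test but not the adjustment over all genes. With DESeq2, whose default filter on mean counts left fewer genes in the adjustment than in edgeR, it was called, as 1 of 24 genes. Rab26 had a log2 fold change of 0.53 and an adjusted p of 0.0466 there. Over all alternatives its adjusted p ran from 0.0466 to 0.417. Without the 5 libraries that stood apart, the log2 fold change was 0.38 (SE 0.11, adjusted p = 0.216). Its mean level in these groups was 18.7 ± 4.02 CPM with vehicle and 26.1 ± 4.72 with Cmpd60 in littermates, and 18.1 ± 3.43 and 27.1 ± 3.33 in APPSWE mice.

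Rab26 did not differ between the genotypes beyond its error. APPSWE and littermate brains differed by a log2 value of -0.049 with vehicle (SE 0.20, adjusted p = 0.983) and by 0.055 with Cmpd60 (SE 0.21, adjusted p = 1.0), or 0.057 (SE 0.16) without the 5 libraries. The interaction, which asks whether the response to Cmpd60 differed between the genotypes, was 0.10 (SE 0.29, adjusted p = 1.0). The interaction was -0.064 (SE 0.23) and the difference with vehicle 0.12 (SE 0.16) without them, so both of these changed sign. With errors of this size, these values do not show that the genotypes respond alike.

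The number of genes detected also differed between the treatment groups of the younger cohort. It was 15555 to 20277 (median 18518) with vehicle and 16402, 22165, 23044 and 23402 with Cmpd60 in APPSWE mice, and these groups did not overlap without the libraries that stood apart. In littermates it was 15044 to 23151 (median 19669) with vehicle and 15084 to 24821 (median 23014) with Cmpd60. With genes detected as a covariate, the log2 fold change of Rab26 was 0.50 (SE 0.20) in littermates, 0.61 (SE 0.21) in APPSWE mice and 0.56 (SE 0.15, edgeR adjusted p = 0.242) in the average.

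Marker lists differed between these groups too. In APPSWE brain, the pituitary list summed to 4.42, 4.79, 27.96, 34.6 and 88.4 CPM with vehicle and to 0, 0.953, 1.86 and 4.22 CPM with Cmpd60, without overlap, and all 4 of its markers were at 0 in replicate s141. The olfactory bulb neuron list (3 of 3) gave 26.1 to 58.5 CPM with Cmpd60, where Cdhr1 was most abundant in 4 of 4 libraries, and 11.7 to 27.9 with vehicle, where it was so in 3 of 5 and Doc2g was at 0 in replicates s144 and s146, and the choroid plexus list (4 of 4, Ttr most abundant) 333 to 545 against 373 to 1515 CPM. The oligodendrocyte list (4 of 4, Mbp most abundant) gave 4474 to 5742 against 5161 to 5767 CPM. In littermates, the pituitary list ran from 1.34 to 586 CPM with Cmpd60 and from 1.86 to 144.7 with vehicle, and the neuron list from 5441 to 6562 against 5355 to 5741 CPM. The list of atrial cardiomyocytes (4 of 4) was low but without overlap there, at 6.41 to 8.58 CPM with Cmpd60 and 4.14 to 5.79 with vehicle, with Myl4 most abundant in all but 1 library and Myl7 at 0 in all of them. The part of these lists in the Rab26 values was not tested.

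For the whole set, edgeR called 0 of the 8 genes in littermates, 0 in APPSWE mice and 0 in the average, beside 0% of all genes in each of these comparisons. At an unadjusted p below 0.05, Rab26 alone was higher in each, while 3.67% of all genes passed in littermates, 9.46% in APPSWE mice and 9.25% in the average. DESeq2 called 0, 0 and 1 of the 8 genes, the 1 being Rab26 in the average, beside 4, 22 and 24 of all genes. Its default filter on mean counts left fewer genes in the adjustment of the average than in edgeR, so these calls are not on the same set of genes. Limma-voom called 0 members in each, beside 0% of all genes. The median log2 fold change of the 8 genes was -0.24 in littermates and 0.10 in APPSWE mice, against 0.02 and 0.03 over all genes. In littermates only Rab26 was above 0 and in APPSWE mice 6 genes were, and without the 5 libraries Rab3c moved above 0 in littermates and Rab3d below 0 in APPSWE mice.

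Groups without overlap were found for Rab27a in littermates, where 0.509% of all genes had none, and for Rab26 in APPSWE mice, where 2.31% had none. Rab27a was at 11.7, 12.2, 12.3, 13.9 and 19.7 CPM with vehicle and at 1.94, 9.15, 10.2, 11.4 and 11.5 CPM with Cmpd60 in littermates. The lowest of these was replicate s152, which had few genes detected. The log2 fold change was -0.66 (SE 0.44, adjusted p = 0.999), and -0.25 (SE 0.16) without the 5 libraries. In APPSWE mice the Rab27a value was 0.12 (SE 0.46, adjusted p = 0.997), and 0.16 (SE 0.18) without the 5 libraries.

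Among the members, Rab37 alone passed an unadjusted p below 0.05 between the genotypes with vehicle. It was at 21.7, 23.2, 28.2, 30.6 and 54.95 CPM in littermates given vehicle and at 16.1, 18.4, 19.03, 19.2 and 29.6 CPM in APPSWE mice given vehicle. Most APPSWE values lay under all littermate values, with replicate s145 (29.6 CPM) as the exception. The log2 difference of APPSWE to littermate with vehicle was -0.63 (SE 0.22, adjusted p = 0.509), and -0.34 (SE 0.19) without replicate s155, the library at 54.95 CPM, where the unadjusted p no longer passed. It was -0.22 (SE 0.16) without the 5 libraries, which did not pass either. In that comparison, edgeR called 0 of the 8 genes and 0.00862% of all genes, and 8.67% of all genes passed the unadjusted p. DESeq2 and limma-voom called 0 of the 8, beside 20 and 3 of all genes.

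With Cmpd60, Rab37 was at 20.5, 23.2, 23.5, 24.1 and 24.8 CPM in littermates and at 22.8, 24.6, 26.4 and 31.5 CPM in APPSWE mice. These groups overlapped. The interaction was 0.82 (SE 0.32, adjusted p = 0.944). It was 0.53 (SE 0.26) without replicate s155 and 0.26 (SE 0.22) without the 5 libraries, and it missed the unadjusted threshold in each of these fits. The effect of Cmpd60 on Rab37 was -0.45 in littermates (SE 0.22, adjusted p = 0.999) and -0.16 there without replicate s155, and 0.37 in APPSWE mice (SE 0.23, adjusted p = 0.707), and without the 5 libraries it was -0.12 (SE 0.15) and 0.14 (SE 0.17). Between the Cmpd60 groups of both genotypes edgeR, DESeq2 and limma-voom called 0 of the 8 genes, where each called 0% of all genes. There, 0 members against 1.34% of all genes passed an unadjusted p below 0.05. For the interaction all of these tools called 0 members, where edgeR and limma-voom called 0% of all genes and DESeq2 4 genes. Rab37 alone passed the unadjusted p, as 5.09% of all genes did. The interaction was above 0 for all 8 genes with a median of 0.27 against 0.01 over all genes, but below 0 for Rab26, Rab3a, Rab3c, Rab3d and Rab27b without the 5 libraries.

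The Rab3 family, which leads the levels in brain, was also measured in every younger brain. Rab3a averaged 433 ± 39.8 CPM (SD, n = 5) with vehicle and 397 ± 42.7 with Cmpd60 in littermates, and 422 ± 45.8 and 393 ± 45.3 in APPSWE mice. Rab3c averaged 571.5 ± 66.2 CPM with vehicle and 564 ± 101 with Cmpd60 in littermates. Rab3d spread widely, from 1.89 to 21.5 CPM among APPSWE vehicle libraries, and its log2 fold change with Cmpd60 was -0.54 in littermates (SE 0.43) and -0.001 there without the 5 libraries. With those libraries left out, the log2 fold changes in littermates and APPSWE mice were -0.091 (SE 0.083) and -0.12 (SE 0.095) for Rab3a, and 0.072 (SE 0.10) and 0.040 (SE 0.12) for Rab3c. None of these values passed an unadjusted p below 0.05.

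In the 20-month heart, the member with the largest difference was Rab37. With vehicle it was at 0.239 to 1.69 CPM with a median of 1.26 (6 to 45 reads per library), and with Cmpd60 at 1.75, 1.82, 2.07, 2.32 and 2.69 CPM (44 to 83 reads). All Cmpd60 hearts lay above all vehicle hearts. The log2 fold change was 0.93 (SE 0.34, edgeR adjusted p = 0.229), from 0.72 to 1.08 with each library left out, and the adjusted p ran from 0.0868 to 0.251 over the alternatives. Rab37 was the only one of the 8 genes without overlap, beside 2.69% of all genes, and the only one at an unadjusted p below 0.05, beside 13.5%. It did not pass the adjustment over all genes: edgeR called 0 of the 8 genes and 1.18% of all genes. DESeq2 and limma-voom called 0 of the 8 as well, beside 746 and 245 of all genes. Mast cell markers (5 of 5, Kit most abundant in most libraries) summed to 4.37 to 8.14 CPM with Cmpd60 and 4.80 to 13.5 with vehicle, with overlap. Higher means with Cmpd60, with overlap, were found for endothelium (894 against 793 CPM), podocyte (267 against 228, Podxl most abundant) and striatum neuron lists (24.6 against 17.9, Adora2a most abundant). The part of these lists in the Rab37 values was not tested.

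The other heart values stayed within the spread between libraries. Rab3a had a log2 fold change of -0.097 (SE 0.085), Rab3d of 0.032 (SE 0.072), Rab27a of 0.17 (SE 0.17), Rab3b of -0.14 (SE 0.26) and Rab27b of -0.008 (SE 0.27). The median over the 8 genes was 0.10, against -0.001 over all genes. Rab26 had 12 reads in the 5 Cmpd60 hearts and 11 in the 6 vehicle hearts, so a change was not detectable at this depth. Most reads of Rab3c came from 3 hearts: replicate 68 (Cmpd60) with 158 reads and 4.36 CPM, replicate 62 (vehicle) with 59 reads and 2.35 CPM, and replicate 64 (vehicle) with 43 reads and 1.77 CPM. Each of the other hearts had 0 to 7 reads. The adipocyte list (4 of 4, none at 0, Plin1 most abundant in these 3) summed to 101, 135 and 88.4 CPM in replicates 68, 62 and 64, and to 0.905 to 41.8 CPM in the others. The neuron list (5 of 5, Stmn2 most abundant, Rbfox3 at 0 in these 3) summed to 28.9, 15.7 and 16.8 CPM there and to 6.35 to 14.1 CPM in the others. Their part in the Rab3c values was not tested.

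The directions of Cmpd60 in kidney rest on the titles. By the treatment field of the labels, the sign of each Cmpd60 difference in kidney given here would turn, and the differences to the response of heart would be other values. In the 20-month kidney, Rab27b gave the smallest adjusted p of the set. It was at 5.73, 7.46, 7.73, 7.87 and 8.33 CPM with vehicle, and from 4.14 to 6.40 CPM with a median of 5.27 with Cmpd60. Only 1 vehicle kidney reached into the range of the Cmpd60 kidneys. The log2 fold change was -0.51 (SE 0.16, edgeR adjusted p = 0.218), from -0.59 to -0.45 with each library left out, and the adjusted p ran from 0.0588 to 0.278 over the alternatives. Its relative Rab27a, the most abundant member in this tissue, differed by less than its error, where 26.5 ± 2.94 CPM (SD, n = 5) with vehicle and 27.4 ± 3.50 with Cmpd60 gave 0.050 (SE 0.10).

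Rab37 was at 0.539, 0.684, 0.935, 1.01 and 1.19 CPM in vehicle kidneys and from 1.01 to 1.76 CPM with a median of 1.33 in Cmpd60 kidneys, a log2 fold change of 0.64 (SE 0.30, adjusted p = 0.440). Rab3a was at 7.23 to 7.77 CPM (median 7.31) with vehicle and 7.64 to 11.4 (median 8.55) with Cmpd60, a log2 fold change of 0.28 (SE 0.13, adjusted p = 0.431). In both genes the upper vehicle libraries overlapped with the lower Cmpd60 libraries, and both unadjusted p-values lay so close to 0.05 that leaving out single libraries moved them across it. For Rab37 these were replicates 51, 52, 53, 54, 45, 46 and 47 (log2 fold change 0.51 to 0.67), and for Rab3a replicates 50, 53, 55, 45, 46, 47, 48 and 49 (0.20 to 0.29). Rab3c had 3 to 14 reads per vehicle library and 0 to 6 per Cmpd60 library, with 40 and 14 reads in all (log2 fold change -1.82, SE 0.89, adjusted p = 0.456). Rab26 had 11 reads in the vehicle and 7 in the Cmpd60 kidneys, too few to show a change.

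The 2 highest Rab3a kidneys, Cmpd60 replicates 55 (11.4 CPM) and 53 (9.55 CPM), also had the fewest genes detected, with 18512 and 19385 against 20069 to 23062 in the other kidneys. The kidney proximal tubule list (3 of 3, none at 0) summed to 2997 CPM in replicate 55, with Slc34a1 most abundant, to 5387 to 8069 CPM in the other Cmpd60 kidneys and to 6132 to 7618 CPM with vehicle. The astrocyte list (4 of 4, Aldh1l1 most abundant in every kidney) gave 667 to 1088 CPM with Cmpd60 and 524 to 777 with vehicle. The part of these in the kidney values was not tested.

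As a set, 2 members were higher and 1 lower in Cmpd60 kidneys at an unadjusted p below 0.05, where 11.3% of all genes passed. EdgeR, DESeq2 and limma-voom each called 0 of the 8 genes. Of all genes, edgeR called 0.300%, DESeq2 429 genes and limma-voom 70. The Cmpd60 and vehicle groups overlapped for all 8 genes, while 2.30% of all genes had none. The median log2 fold change over the 8 genes was 0.085, against 0 over all genes.

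Whether Cmpd60 acted differently in kidney and heart was tested as an interaction over 22717 genes. With the kidney groups as titled, Rab3a gave a difference of 0.36 in log2 fold change (SE 0.14, edgeR adjusted p = 0.444), with 0.28 in kidney and -0.097 in heart. With these groups, it was the only member at an unadjusted p below 0.05, where 9.08% of all genes passed. EdgeR, DESeq2 and limma-voom called 0 of the 8 genes. Of all genes, edgeR called 0.0616%, DESeq2 164 genes and limma-voom 8. For Rab37, whose log2 fold change was above 0 in both tissues, the difference was -0.29 (SE 0.48), and for Rab27b it was -0.50 (SE 0.33). By the treatment field, the kidney value of Rab3a would turn below 0, to the side of its heart value. The kidney value of Rab37 (0.64 as titled) would turn away from its heart value of 0.93. The member past the unadjusted p could then be another, and this fit was not run.

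**Figure D3:**
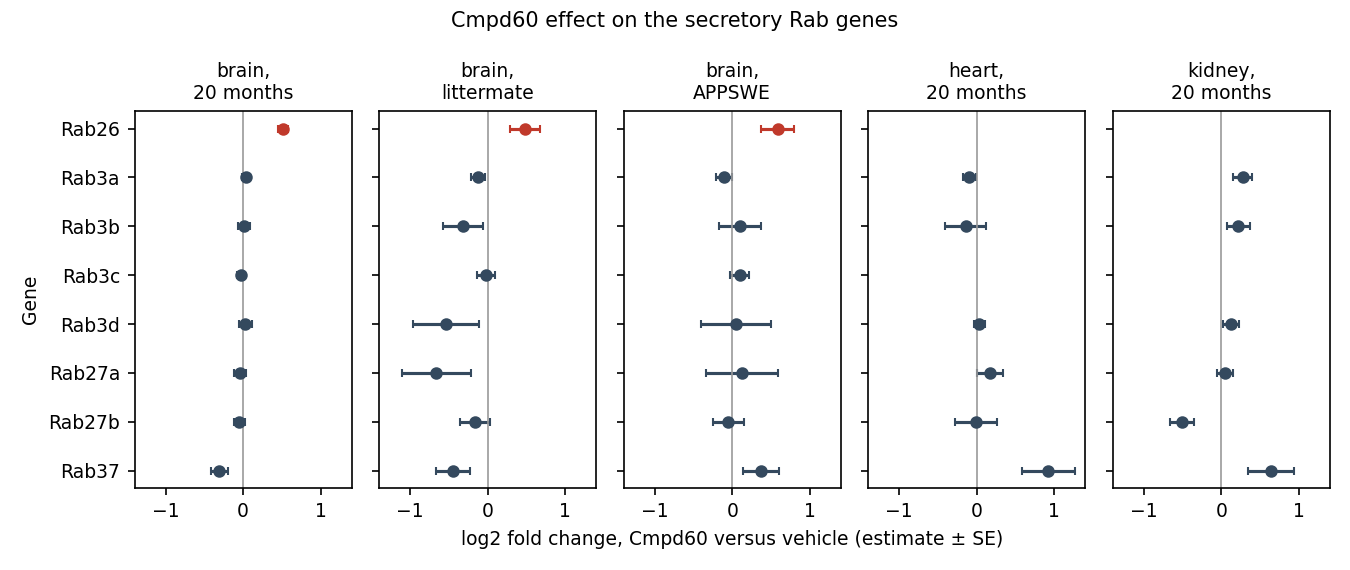
Log2 fold change of Cmpd60 against vehicle for each secretory Rab gene, as the edgeR estimate (point) ± SE (bar), in brain of 20-month mice (6 and 6 libraries), littermates (5 and 5) and APPSWE mice (4 and 5), and in heart (5 and 6) and kidney (6 and 5) of 20-month mice. Rab26 (red) lies at 0.52, 0.48 and 0.59 in the brain panels. Rab26 and Rab3c are not drawn in heart and kidney, where most libraries had few reads.

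Among the partners, Cmpd60 changed few genes past the adjustment. EdgeR called 1.18% of all genes in heart and 0.300% in kidney. In heart, Rab31, a Rab of the trans-Golgi network and endosomes, rose by a log2 fold change of 0.49 (SE 0.094, adjusted p = 0.0232), without overlap, as 1 of the 34 other Rabs. The synaptic vesicle protein gene Sv2a rose in heart by 0.81 (SE 0.18, adjusted p = 0.0421), with overlap, as 1 of 14 genes of the fusion machinery. With the kidney groups as titled, it rose also in kidney, by 0.75 (SE 0.13, adjusted p = 0.0197), without overlap, as 1 of 12 tested. By the treatment field, the sign in kidney would turn, away from that in heart. In brain its value was 0.038 (SE 0.049) at 20 months and 0.14 (SE 0.052, adjusted p = 0.364) in the average of the younger mice, or 0.098 (SE 0.050) without the 5 libraries.

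EdgeR, the only tool used for the lists, called 0 genes in the remaining ones, so the gene of smallest p is named for each. In heart, the Rab27 effector Sytl2 had -0.71 (SE 0.17, adjusted p = 0.0616), the regulator Chml 0.27 (SE 0.12) and the dense-core granule gene Cadps2 -0.66 (SE 0.23). At an unadjusted p below 0.05 stood 1 of 17 effectors, 1 of 15 regulators and 2 of 9 dense-core granule genes there, beside 13.5% of all genes. In kidney, Syn1 had 2.01 (SE 0.62, adjusted p = 0.218) at a mean of 0.608 CPM, Chm -0.20 (SE 0.10), Scg5 0.12 (SE 0.13) and Rab13 0.49 (SE 0.18). Of these lists, 3 of 18 effectors, 0 of 15 regulators, 0 of 7 dense-core granule genes and 3 of 34 other Rabs passed the unadjusted p, beside 11.3% of all genes.

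In the average of the younger brains, the dense-core granule gene Scg5 had the largest difference of the named partners, with a log2 fold change of -0.76 (SE 0.16, edgeR adjusted p = 0.333). The regulator Rabggta had -0.25 (SE 0.11), Rab8b 0.29 (SE 0.13) and the effector Rims1 -0.12 (SE 0.070). At an unadjusted p below 0.05, 0 of 18 effectors, 1 of 15 regulators, 4 of 14 fusion genes, 4 of 10 dense-core granule genes and 1 of 34 other Rabs were found, beside 9.25% of all genes, and edgeR called 0 genes of any list. The genes that act with Rab26 were not among those that passed: Plekhg5 had 0.086 (SE 0.11) and Atg16l1 0.012 (SE 0.085).

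Without the 5 libraries that stood apart, Scg5 had -0.67 (SE 0.19, edgeR adjusted p = 0.190), Rabggta -0.16 (SE 0.087), Rab8b 0.12 (SE 0.078) and Rims1 -0.12 (SE 0.061) in that average. Plekhg5 had -0.005 (SE 0.11) and Atg16l1 0.067 (SE 0.063). At an unadjusted p below 0.05 were then 0 of 18 effectors, 0 of 15 regulators, 2 of 14 fusion genes, 4 of 10 dense-core granule genes and 4 of 34 other Rabs, beside 11.9% of all genes, and edgeR again called 0 genes of these lists.

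The reads were counted with regard to their strand, and every gene that overlaps a member lies on the opposite strand in the GENCODE M1 annotation. There, the Rab26 gene overlaps a small nucleolar RNA gene, with 0 shared exon bases of 1601. Rab3a shares 29 of its 2226 exon bases with Mpv17l2 and Rab3b 317 of 3524 with 8030443G20Rik. Rab3c, Rab3d, Rab27a and Rab27b overlap no other gene, and the overlap of Rab37 with Cd300lf includes 0 shared exon bases. Genes beside Rab26 in the RefSeq order of GRCm38.p6, chosen after its values were seen, had log2 fold changes in the 20-month brain of 0.089 (Traf7), 0.089 (Caskin1) and -0.086 (Mlst8) on one side and 0.13 (Pkd1), 0.075 (Tsc2) and 0.020 (Nthl1) on the other.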

How the data were processed

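The authors deposited read counts per Ensembl gene for each of 54 libraries, without normalization. Per the submitters' processing notes, reads were handled with FastQC, Trimmomatic 0.32, HISAT2 2.1.0 and HTSeq 0.11.0, and per the study's methods the counting used read strand; the genome build is not given in the sources used here. Library preparation used oligo-dT beads and a directional kit. The 5 summary lines, 15.4 to 22.2% of a library's reads, were left out. Titles gave the kidney groups, since the treatment field of those labels gives the opposite. The age of the younger cohort is that of the series design; the growth protocol states 20 months for all mice.

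Counts were scaled with TMM in edgeR 4.0.16 (R 4.3.3), whose quasi-likelihood test was run on every gene above 2 counts in 3 or more fitted libraries, with Benjamini-Hochberg adjustment over all of them. The SE is the log2 fold change divided by the square root of F. Each 20-month tissue, the grouped brains of the younger cohort and the vehicle-treated 20-month tissues were fitted separately. Correlations used log2 CPM with a prior count of 2, and exon lengths came from GENCODE M1. No pair of libraries held identical values. Alternatives were DESeq2 1.42.0, limma-voom 3.58.1 with and without quality weights, size factors, other filters, thinned counts, replicate s139 in either group, and each library left out. DESeq2 was run with its default filter on mean counts, which can leave genes out of the adjustment, so its adjusted p-values need not cover the same genes.

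The 8 members and all lists were chosen with earlier results of these data known. Named genes were the members, for each list up to 4 called genes of largest change at a mean of at least 1 CPM or else the gene of smallest p, and the 5 genes most like Rab26; other genes were chosen after their values were seen. Some genes that this rule names are not reported here. Symbols were found for 32651 genes, including all 99 list genes and all 90 markers.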

Additional observations from a re-analysis of the deposited data

Results flagged for a closer look

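Each member was checked in each group for a library far from the rest of its group by Dixon's test on log2 CPM, and 13 of 80 pairs of member and group held such a library, where chance gives about 1 in 20. Of these, 9 were in libraries with few genes detected. APPSWE vehicle replicate s140 had Rab26 at 12.22 CPM (others 18.0 to 20.9), Rab3a at 501.8 (391.7 to 415.3), Rab27a at 1.644 (9.72 to 17.7) and Rab27b at 24.43 (43.2 to 49.4). Littermate Cmpd60 replicate s152 had Rab3b at 11.74 CPM (others 30.96 to 43.7), Rab3d at 3.73 (10.75 to 11.92), Rab27a at 1.942 (9.15 to 11.53) and Rab27b at 27.4 (38.15 to 42.6). Littermate vehicle replicate s155 had Rab3d at 26.57 CPM, while the others held 10.93 to 11.73.

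The remaining 4 were spread over the groups. Rab37 was at 29.59 CPM in APPSWE vehicle replicate s145 (others 16.1 to 19.2). Rab27b was at 46.98 CPM in 20-month brain replicate 33 of the Cmpd60 group (others 35.98 to 39.7). Rab3c was at 4.357 CPM in heart replicate 68 of the Cmpd60 group (others 0 to 0.0828), and Rab3b at 3.783 CPM in kidney replicate 51 of the Cmpd60 group (others 4.59 to 5.11).

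A pair of differences between responses passed an unadjusted p below 0.05 but not the adjustment over all genes. The response of Rab37 to Cmpd60 differed between APPSWE mice and littermates by 0.817 on the log2 scale (adjusted p = 0.944), and that of Rab3a between kidney and heart by 0.361 (adjusted p = 0.444). The first was 0.53 without replicate s155 and 0.26 without the 5 libraries with few genes detected, and it missed the unadjusted threshold in each of these fits. The second holds for the kidney groups as titled. By the treatment field, the Rab3a kidney value of 0.275 would turn below 0, the side of its heart value of -0.097. The difference would then be another value, which was not fitted. In replicate s139, which no comparison uses, Rab26 was at 28.07 CPM, above the 12.22 to 20.9 CPM of the APPSWE vehicle brains and within the 23.76 to 31.73 CPM of the APPSWE Cmpd60 brains.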

How the results depend on the processing

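Of the counts of called members and the main values of Rab26, 363 under other settings or with a library left out stayed the same by their rule. Counts had to stay equal or within 1.5 times, and Rab26 in the average had to keep its side of the test. In the 20-month brain, Rab26 had to move by less than the SD of its log2 CPM in the vehicle libraries. Many of these are counts of 0 members where few of all genes were called, which had little room to move and say little on stability. The 1 that moved was from DESeq2, which called 1 member, Rab26, in the average over genotypes of the younger brains, where edgeR called 0. The DESeq2 adjustment covered fewer genes there, and the part of this in the call was not tested. Of the other values of single members, 269 kept their direction and their side of the threshold, 20 no longer passed it and 1 reversed. From the refits with a library left out, only those of the lowest and the highest value of each were counted here. Losses in the remaining refits, such as those listed above for Rab37 and Rab3a in kidney, are therefore not all included. The threshold was the adjusted p for calls and the unadjusted p for other values, and the only member to lose a call was Rab37 between kidney and heart. Each library was left out in turn (92 refits), and the refits of the 20-month brain were not tested. In every tested comparison of treatment or genotype, 0 members were called. There were 8 in brain against kidney and in brain against heart, and 4 to 6 in kidney against heart. Rab26 in the average ranged from 0.48 to 0.60 on the log2 scale. Rab3c in kidney against heart turned from -1.74 to 0.279 with limma-voom and sample quality weights, and the cause was not tested. Among values of members that missed an unadjusted p below 0.05, the 20-month brain not counted, 52 of 597 changed sign under other settings and 67 of 1134 with a library left out. Rab26 with Cmpd60 against vehicle stayed above 0, at 0.31 to 0.50 in littermates and 0.35 to 0.66 in APPSWE mice over 11 other settings. Its average was 0.36 to 0.58, the lowest with limma-voom and sample quality weights (main value 0.53), 0.47 with replicate s139 as vehicle and 0.54 with it as Cmpd60. The median of all genes moved under limma-voom from 0.03 to 0.15 in APPSWE mice and to 0.11 in the average, where Rab26 had 0.66 and 0.58. No paired analysis was possible because the groups compared share no replicate numbers.

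Counts over all genes depended on the tool. In heart, edgeR called 229 genes and DESeq2 746. In kidney, edgeR called 62, DESeq2 429, limma-voom with weights 389 and edgeR without a filter 94. In the younger brains, where edgeR called 0, DESeq2 called 4 in littermates, 22 in APPSWE mice, 24 in the average and 4 for the interaction, limma-voom with weights 1, 1, 62 and 0, and edgeR without a filter 2, 8, 7 and 2. Without the 5 libraries with few genes detected, an alternative chosen after seeing the data, these were 1, 3, 2 and 0. The average had 1 with replicate s139 as Cmpd60 and 1 with genes detected as a covariate, and APPSWE mice 1 when fitted alone. Between vehicle groups edgeR called 2, DESeq2 20, limma-voom with weights 1 and edgeR without the 5 libraries 7, and between Cmpd60 groups, with 0 in edgeR, limma-voom with weights called 2 and edgeR without the 5 libraries 5. For the response of kidney against heart, edgeR called 14, DESeq2 164, limma-voom 8 and limma-voom with weights 39. Members with few reads, Rab26 and Rab3c in heart and kidney, allow no statement on a change.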

Other observations

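Replicate s139, which the labels and the study's table place in different treatments, held 27120944 counts and 18122 genes with a read. Its values were Rab3c 603 CPM, Rab3a 385 CPM, Rab27b 42.6 CPM, Rab3b 39.7 CPM, Rab26 28.1 CPM (759 reads), Rab37 17.5 CPM, Rab3d 15.7 CPM and Rab27a 6.99 CPM. In the average of the younger brains, the genes beside Rab26, chosen after its values were seen, had log2 fold changes with Cmpd60 of 0.29 (Traf7, SE 0.18), 0.038 (Caskin1), 0.089 (Mlst8), 0.12 (Pkd1), 0.059 (Tsc2) and -0.47 (Nthl1, SE 0.43), none of which passed an unadjusted p below 0.05 in edgeR. In APPSWE mice alone, where Rab26 had 0.59 (adjusted p = 0.444), Pkd1 with 0.27 (SE 0.13, adjusted p = 0.521) and Tsc2 with 0.25 (SE 0.11, adjusted p = 0.464) did pass it, and in littermates none of the 6 genes did. Without the 5 libraries with few genes detected, an alternative chosen after seeing the data, Pkd1 had 0.31 (SE 0.070, adjusted p = 0.119) in the average and 0.51 (SE 0.11, adjusted p = 0.106) in APPSWE mice, Tsc2 had 0.25 (SE 0.10) in APPSWE mice, and in the average Traf7 had 0.11 (SE 0.099), Caskin1 0.074 (SE 0.066), Mlst8 0.059 (SE 0.088), Tsc2 0.072 (SE 0.067) and Nthl1 0.045 (SE 0.22). Pkd1 alone of the 6 passed the unadjusted p in the average.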
